A study of Mus musculus with 6 samples.

Results

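Cytochrome P450 enzymes (P450s) are heme proteins that insert oxygen into lipids, hormones, drugs and insecticides. The P450 genes were taken as every row of the deposited expression table whose gene name begins with Cyp and a digit, without the suffix that marks a pseudogene, which gave 102 of 56514 rows. The rule also took in Cyp4x1os, an antisense RNA at the Cyp4x1 locus that encodes no P450, and it left out 33 named Cyp pseudogenes. Poly(A) RNA of mouse hippocampus had been sequenced in 6 libraries. In 3 of them (CLO) the label gives exposure to clothianidin, a neonicotinoid insecticide, and in the other 3 (Ctrl) it gives the vehicle. The study text names male C57BL/6N mice given 50 mg/kg/day of clothianidin and asks about effects on the next generation, and the extraction protocol names the offspring as the source of the hippocampus. The sex, age, litter and sire behind each library were not stated in the labels, so p-values below cover the spread among these libraries only, and parents may be shared.

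Most P450s of families 1 to 3 act in liver, in the endoplasmic reticulum, where they take electrons from the reductase Por and oxidise foreign compounds. Other P450s work on the body's own lipids: they cut the methyl group from lanosterol, hydroxylate cholesterol so that it can leave the brain, break down retinoic acid, build steroid hormones and oxidise fatty acids. In mammals, neonicotinoids are oxidised by liver P450s and reduced at the nitro group by aldehyde oxidase. In the brain, neurons make the cholesterol hydroxylase Cyp46a1, and granule cells of the dentate gyrus are a known site of the oxysterol and steroid hydroxylase Cyp7b1.

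The 3 most abundant P450s in hippocampus were sterol enzymes, while most of the drug and insecticide P450s of liver had no counts. Of the 102 genes, 53 had 0 counts in all 6 libraries, 19 had 1 to 9 counts in all, and 30 had 10 or more. Those 30 are called read below, and 25 of them had counts in every library. Of the 30, 19 averaged at least 1 TPM (a level scaled by gene length and library size) and 7 averaged at least 10 TPM. The libraries held 19637402 to 21189231 counts in the CLO group and 25232305 to 26812580 in the Ctrl group, so that 3 counts over all 6 libraries, the limit that a count of 0 allows, amounted to between 0.00957 and 0.0322 TPM for the 53 genes, depending on gene length. These limits cover counting error only.

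**Figure D1:**
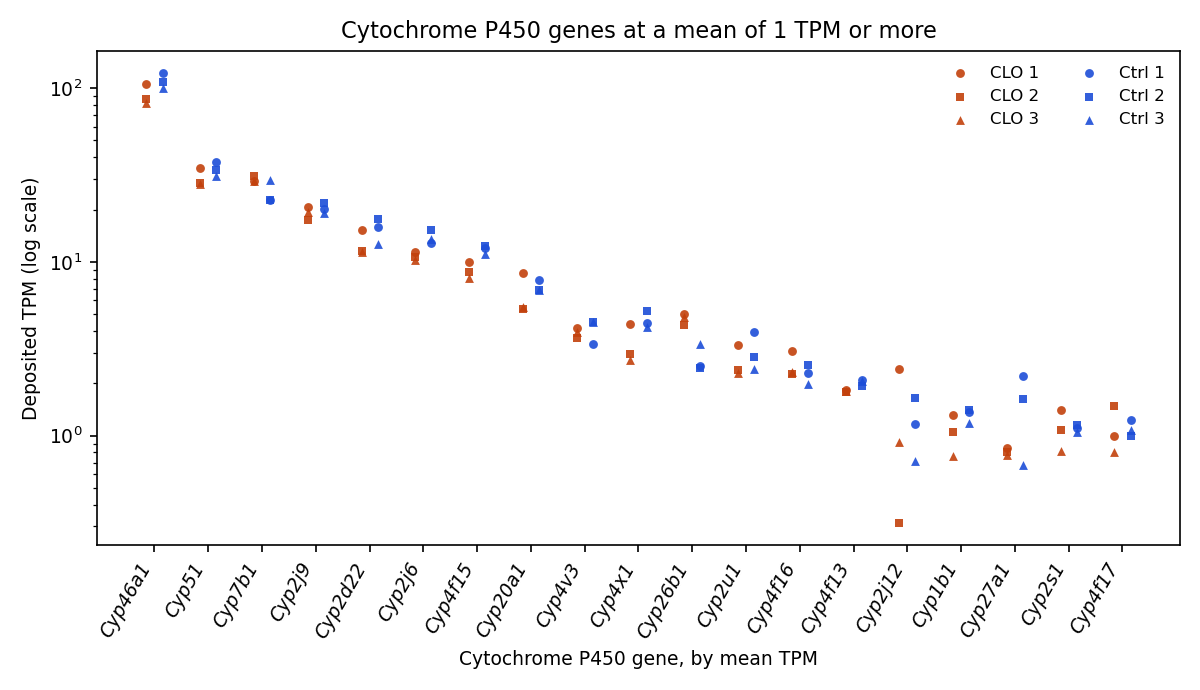
Deposited TPM (log axis) of the 19 P450 genes that averaged at least 1 TPM, with each CLO library and each Ctrl library as a point. Cyp46a1 stands alone at 82.3 to 122 TPM, and the CLO points lie wholly below the Ctrl points for Cyp2j6, Cyp4f15 and Cyp4f13 and wholly above them for Cyp26b1.

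The start regions of the genes at 1 TPM or more and of the silent genes, those with 0 counts, differed in the motifs they held. The windows were the 250 bases before the first start listed for each gene in a set of RefSeq promoters (assembly GRCm38.p6). The set used held a window for 14 of the 19 genes at 1 TPM or more and for 42 of the 53 genes with 0 counts. Among the genes at 1 TPM or more, Cyp7b1, Cyp2d22, Cyp4x1, Cyp2u1 and Cyp4f17 had no window in it. The first 3 windows below belong to the most abundant P450, to an enzyme of cholesterol synthesis and to the gene with the largest CLO against Ctrl difference in the family. The other two belong to liver P450s with 0 counts here, the bile acid enzyme Cyp8b1 and the drug enzyme Cyp1a2. Capitals mark the GC box GGGCGG, the core bound by Sp1 and related factors, and the TATA box TATAAA. A match on the opposite strand is marked where it reads CCGCCC.
Cyp46a1, chr12:108334066-108334315, plus strand: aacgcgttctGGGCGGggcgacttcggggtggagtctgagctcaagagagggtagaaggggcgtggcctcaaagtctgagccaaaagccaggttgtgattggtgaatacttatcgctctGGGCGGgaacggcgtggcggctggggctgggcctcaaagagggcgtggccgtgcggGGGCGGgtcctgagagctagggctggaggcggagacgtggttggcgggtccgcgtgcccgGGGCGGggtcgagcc
Cyp51, chr5:4104698-4104947, minus strand: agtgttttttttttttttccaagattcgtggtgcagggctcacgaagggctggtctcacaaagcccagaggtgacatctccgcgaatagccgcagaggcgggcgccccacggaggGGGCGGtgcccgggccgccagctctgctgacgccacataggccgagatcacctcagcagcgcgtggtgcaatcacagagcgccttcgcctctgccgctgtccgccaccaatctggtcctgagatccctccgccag
Cyp26b1, chr6:84593811-84594060, minus strand: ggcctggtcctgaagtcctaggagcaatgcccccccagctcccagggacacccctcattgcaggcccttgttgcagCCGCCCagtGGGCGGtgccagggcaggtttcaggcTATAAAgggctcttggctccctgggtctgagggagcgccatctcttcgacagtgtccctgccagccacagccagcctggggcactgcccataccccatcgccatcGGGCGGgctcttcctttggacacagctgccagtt
Cyp8b1, chr9:121916306-121916555, minus strand: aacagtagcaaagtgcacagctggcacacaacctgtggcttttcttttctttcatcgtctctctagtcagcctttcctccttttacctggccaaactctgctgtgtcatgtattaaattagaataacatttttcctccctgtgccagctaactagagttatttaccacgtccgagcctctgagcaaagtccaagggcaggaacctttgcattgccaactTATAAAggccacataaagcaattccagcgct
Cyp1a2, chr9:57683656-57683905, minus strand: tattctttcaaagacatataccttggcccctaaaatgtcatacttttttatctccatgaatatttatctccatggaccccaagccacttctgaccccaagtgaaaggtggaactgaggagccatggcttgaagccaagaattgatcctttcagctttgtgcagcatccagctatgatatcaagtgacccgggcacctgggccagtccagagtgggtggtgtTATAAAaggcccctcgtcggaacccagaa

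The Cyp46a1 window held 4 GC boxes and no TATA box, and the Cyp51 window held 1 GC box and no TATA box. The Cyp26b1 window held 3 GC boxes and a TATA box that began 139 bases before the start. In the silent genes shown, the TATA box lay close to the start, 31 bases before it in Cyp8b1 and 29 bases before it in Cyp1a2, with no GC box. Its position in the other silent genes was not measured. Across the family, searched on both strands, GGGCGG was present in 12 of the 14 windows of genes at 1 TPM or more (85.7%), in 5 of 22 windows of genes with counts under 1 TPM (22.7%) and in 1 of 42 windows of genes with 0 counts (2.38%), against 32.7% of all 32841 RefSeq windows. Cyp2j9 and Cyp20a1 were the expressed genes without it, and Cyp3a11 was the silent gene with it. TATAAA ran the other way: it was present in 1 of the 14 windows (7.14%, Cyp26b1), in 5 of the 22 (22.7%) and in 22 of the 42 (52.4%), against 12.4% of all windows. Counting every listed start of a gene, TATAAA was found in 6 of the 22, through Cyp19a1, and the other counts of P450 genes stayed as given. Other motifs were searched in the same first windows. CCAAT was in 8 of the 14 and 14 of the 42 (33.9% of all windows). GCGTG was in 8 and 3 (28.2%), AGGTCA in 0 and 14 (14%) and AGTTCA in 4 and 7 (11.8%). TGACGTCA was in 0 and 0 (1.55%) and CACGTG in 2 and 0 (6.02%). The median GC content was 56.6% in the expressed genes, 44% in the silent ones and 52.4% over all windows. Many silent genes are neighbouring copies of 1 ancestor and share promoter sequence, so the windows are not independent, and a match describes letters and not a bound factor.

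**Figure D2:**
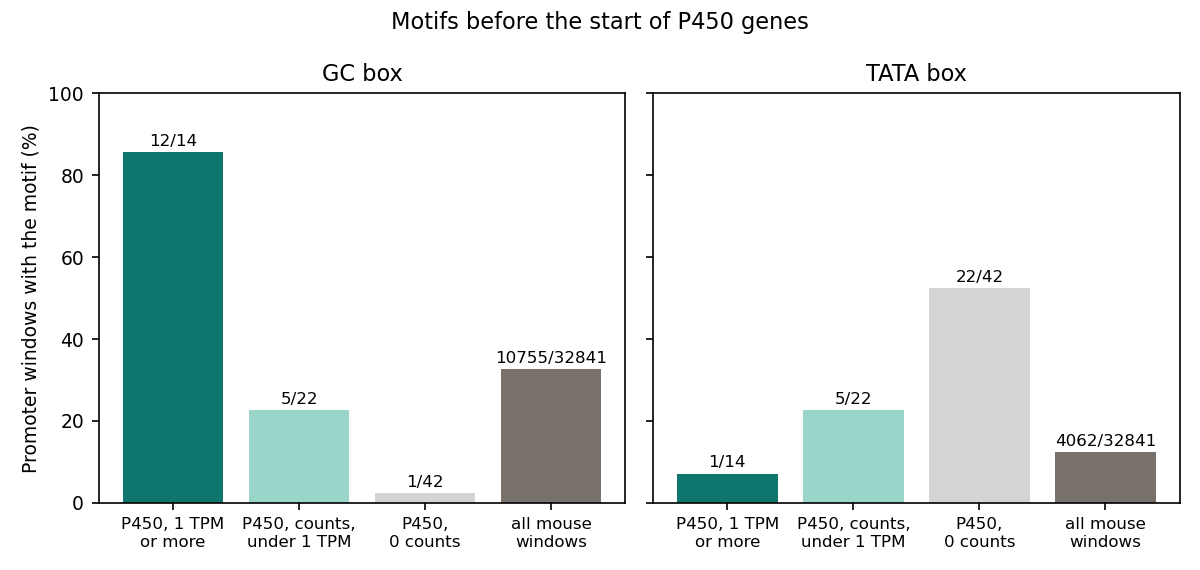
Share of windows (percent) with the GC box GGGCGG and with the TATA box TATAAA in P450 genes at 1 TPM or more, P450 genes with counts under 1 TPM, P450 genes with 0 counts, and all RefSeq windows. The GC box share is highest (85.7%) and the TATA box share lowest (7.14%) in the P450 genes at 1 TPM or more, and the order is the opposite in those with 0 counts.

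Of the 61 genes of the drug and insecticide families 1 to 3, counted without the vitamin D enzyme Cyp2r1, 9 were read and 42 had 0 counts. All 9 Cyp3a genes and all 5 Cyp2b genes, known in liver for drug oxidation and for induction by drugs, had 0 counts in every library. So did 14 of 15 Cyp2c genes, 6 of 9 Cyp2d genes and 3 of 4 Cyp2a genes. Cyp2e1, the ethanol-oxidising P450, had 6 counts in all and Cyp1a1, the dioxin-inducible one, had 10. The nuclear receptors that induce Cyp2b and Cyp3a genes were also low, with 38 counts in all for Nr1i3 and 0 for Nr1i2. Outside these families, the bile acid enzymes Cyp7a1 and Cyp8b1 and the adrenal enzymes Cyp11b1 and Cyp11b2 had 0 counts. Of 6 hepatocyte markers, Apob, Serpina1a and Ahsg had 0 counts, and the summed TPM of all 6 was 0.745 to 0.902 in CLO libraries and 0.266 to 0.906 in Ctrl libraries.

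A count of 0 limits counted reads only. In 5 of the 52 silent genes with a transcript to check (Cyp2c40, Cyp2c67, Cyp2c69, Cyp3a41a and Cyp3a41b) at least 50% of the 50-base stretches of the transcripts also occur in another gene's transcripts in the GENCODE M21 annotation, and the labels do not say how reads that match several genes were counted. At a limit of 10% the number was 31 of the 52 silent genes, against 1 of the 19 genes at 1 TPM or more. That gene was Cyp4f16 (17.4%), whose level is uncertain to that extent. It shared most with Cyp4f37, which had 8 counts in all, and next with Cyp4f17, which had 216. Cyp7b1, Cyp20a1, Cyp4v3, Cyp39a1 and Cyp11a1 each overlap another annotated gene on the same strand by gene span, introns included. Part of their reads could have been split or set aside where exons overlap. Cyp7b1 and Cyp39a1 shared no 50-base stretch with another gene's transcripts. Cyp4v3 shared 7.02%, with the overlapping Gm45753, and Cyp11a1 shared 2.06%, most with the overlapping Gm17322.

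**Figure D3:**
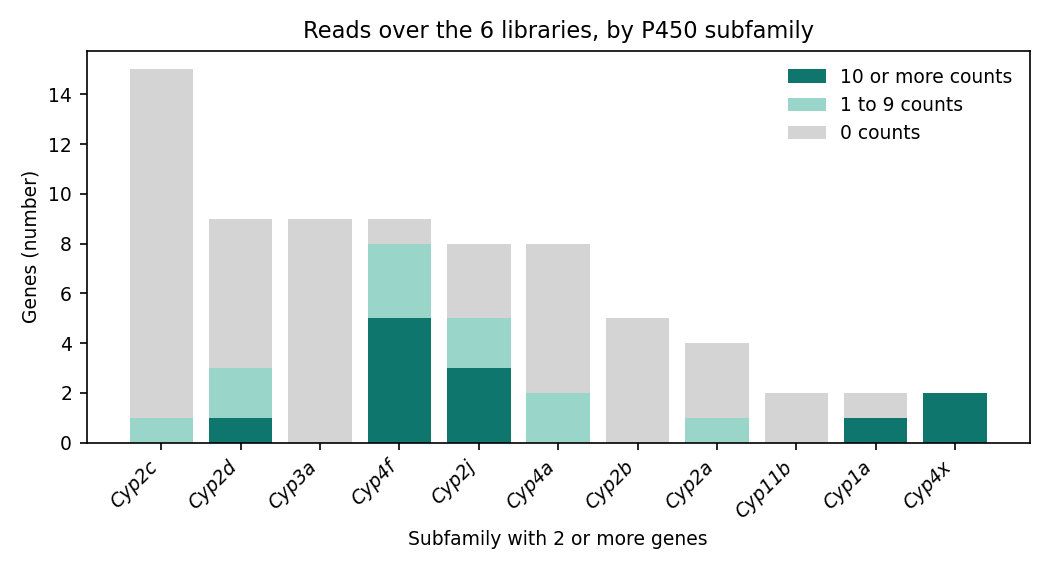
Number of genes in each P450 subfamily, for subfamilies of 2 or more, split into genes with 10 or more counts, with 1 to 9 counts and with 0 counts over the 6 libraries. The Cyp3a (9 genes) and Cyp2b (5 genes) bars lie wholly in the 0 class, whereas 5 of 9 Cyp4f genes and both Cyp4x entries were read.

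The sterol enzymes led the family. Cyp46a1 (chromosome 12, 108300640 to 108328493, plus strand, GRCm39), the neuronal enzyme that hydroxylates cholesterol, had 106, 86.8 and 82.3 TPM in CLO libraries 1, 2 and 3 and 122, 109 and 100 TPM in Ctrl libraries 1, 2 and 3. It made up 37.6% to 39.5% of all P450 TPM in CLO libraries and 40.0% to 43.2% in Ctrl libraries, and its lowest library stood above the highest library of every other P450 gene. Cyp51, the lanosterol demethylase of cholesterol synthesis, had 34.8, 28.2 and 28.0 TPM in CLO libraries and 37.7, 33.8 and 31.0 TPM in Ctrl libraries. Cyp7b1 (chromosome 3, 18126114 to 18297502, minus strand, GRCm39) had 29.3, 31.2 and 29.0 TPM in CLO libraries and 22.6, 22.8 and 29.7 TPM in Ctrl libraries. The order of these last 2 genes was not fixed, as Cyp51 exceeded Cyp7b1 in 4 of 6 libraries.

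Cyp27a1 and Cyp39a1, both enzymes of oxysterol and bile acid synthesis, were low. Cyp27a1 had 0.850, 0.801 and 0.773 TPM in CLO libraries and 2.21, 1.63 and 0.676 TPM in Ctrl libraries, so Ctrl 1 and Ctrl 2 stood above all others and Ctrl 3 below all. Cyp39a1 had 0.726, 0.436 and 0.453 TPM in CLO libraries and 1.08, 0.811 and 0.425 TPM in Ctrl libraries, with the same pair of Ctrl libraries at the top.

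Among the arachidonic acid and drug P450s of families 1 and 2, Cyp2j9, a brain-rich arachidonic acid hydroxylase of the mouse, had 20.6, 17.4 and 19.3 TPM in CLO libraries and 20.1, 21.7 and 19.1 TPM in Ctrl libraries. Its neighbour Cyp2j6, which also oxidises polyunsaturated fatty acids, had 11.4, 10.7 and 10.2 TPM in CLO libraries and 12.9, 15.3 and 13.5 TPM in Ctrl libraries. Cyp2d22, a mouse relative of the human drug enzyme CYP2D6, had 15.3, 11.6 and 11.4 TPM in CLO libraries and 15.8, 17.6 and 12.7 TPM in Ctrl libraries. The CLO and Ctrl libraries overlapped for Cyp2j9 and Cyp2d22, while all CLO values of Cyp2j6 lay below all Ctrl values in TPM, though not once library composition was scaled as described below. Cyp2u1, a fatty acid hydroxylase, had 3.34, 2.38 and 2.30 TPM in CLO libraries and 3.93, 2.85 and 2.42 TPM in Ctrl libraries. Cyp1b1, which oxidises oestradiol and retinoids and is known from vessel-associated cells, had 1.31, 1.05 and 0.761 TPM in CLO libraries and 1.37, 1.41 and 1.18 TPM in Ctrl libraries. Cyp2s1 averaged 1.10 ± 0.289 TPM in CLO libraries and 1.10 ± 0.0481 TPM in Ctrl libraries (SD, n = 3 each). Cyp2j12 varied widely within a group, with 2.41, 0.316 and 0.915 TPM in CLO libraries and 1.16, 1.64 and 0.711 TPM in Ctrl libraries, on 6 to 38 counts a library. Cyp2f2 and Cyp1a1 were the other read genes of these families, Cyp2r1 apart, with at most 8 counts in any library.

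The family 4 enzymes, fatty acid hydroxylases as a group, had 8 of 20 genes read, the antisense RNA Cyp4x1os apart. Cyp4f15 had 10.0, 8.75 and 8.09 TPM in CLO libraries and 11.99, 12.4 and 11.1 TPM in Ctrl libraries. Cyp4x1, a brain-expressed member whose human form epoxidises the endocannabinoid anandamide, had 4.38, 2.96 and 2.71 TPM in CLO libraries and 4.45, 5.20 and 4.21 TPM in Ctrl libraries. Both genes were lower in CLO 2 and CLO 3 than in any Ctrl library. Cyp4v3, whose human relative CYP4V2 is a fatty acid hydroxylase mutated in a retinal dystrophy, had 4.14, 3.63 and 3.94 TPM in CLO libraries and 3.36, 4.51 and 4.52 TPM in Ctrl libraries. Cyp4f16 averaged 2.54 ± 0.437 TPM in CLO libraries and 2.28 ± 0.298 TPM in Ctrl libraries, Cyp4f13 1.80 ± 0.0227 TPM in CLO libraries and 2.03 ± 0.0785 TPM in Ctrl libraries, and Cyp4f17 1.09 ± 0.344 TPM in CLO libraries and 1.10 ± 0.121 TPM in Ctrl libraries (SD, n = 3 each). Of these, Cyp4f13 did not overlap between the groups in TPM but did on the scaled values below. Cyp4f14, Cyp4b1 and the antisense RNA Cyp4x1os were read at no more than 11 counts a library. Cyp4x1os overlaps Cyp4x1 on the opposite strand. The libraries kept strand, but the labels do not state the strand setting of the counting, so the pair is uncertain. The same limit holds for the read genes Cyp51, Cyp2u1, Cyp2s1 and Cyp2f2. Their spans also overlap a gene on the opposite strand, Akap9 in the case of Cyp51.

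The 3 enzymes that degrade retinoic acid differed in level. Cyp26b1 (chromosome 6, 84548396 to 84570890, minus strand, GRCm39), the main brain form, had 5.04, 4.31 and 4.79 TPM in CLO libraries and 2.52, 2.46 and 3.38 TPM in Ctrl libraries, and the groups did not overlap. Cyp26a1 had 0.745, 1.24 and 1.20 TPM in CLO libraries and 1.09, 1.03 and 0.610 TPM in Ctrl libraries, with overlap, and Cyp26c1 had 1 count in all. Cyp20a1, a P450 with no settled substrate, had 8.67, 5.33 and 5.53 TPM in CLO libraries and 7.82, 6.93 and 6.88 TPM in Ctrl libraries.

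Steroid hormone P450s were low, with none at a mean of 1 TPM or more. Cyp11a1, which cuts the side chain of cholesterol in the first step of steroid synthesis, had 0.512, 0.362 and 0.329 TPM in CLO libraries and 0.861, 0.442 and 0.504 TPM in Ctrl libraries. Cyp19a1, the aromatase that makes oestrogens, had 0, 1 and 4 counts in CLO libraries and 5, 5 and 0 counts in Ctrl libraries. Cyp17a1, which opens the route to androgens, had 5 counts in all and Cyp21a1, of corticosteroid synthesis, had 2. Of the vitamin D enzymes, the activating Cyp2r1 and Cyp27b1 had 30 and 18 counts in all, and the degrading Cyp24a1 had 1. Apart from Cyp11a1, none of these genes had enough counts to be tested.

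No P450 gene passed the test between CLO and Ctrl libraries. The comparison asks whether hippocampal P450 transcripts differ with the paternal exposure. With edgeR (quasi-likelihood test, Benjamini-Hochberg adjusted over the 16129 genes tested), 0 of the 22 P450 genes that passed the filter on low counts had an adjusted p under 0.05, as against 0% of all genes tested. At an unadjusted p under 0.05, 1 P450 gene was higher in CLO libraries, against 6.18% of all genes tested, and 0 were lower, against 7.26%. In CPM scaled by the TMM method (trimmed mean of M values), 2 of the 22 were higher in every CLO library than in any Ctrl library, against 7.84% of all genes tested, and 4 were lower, against 6.70%. The median log2 fold change of CLO over Ctrl was -0.045 over the 22 genes and -0.014 over all genes tested. Taken from the deposited TPM instead, the median over all genes tested was -0.13, so that TPM values alone put CLO libraries lower by that shift. A change in RNA per cell and a change in the number of cells that carry it cannot be told apart in these bulk samples.

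In the edgeR comparison above, Cyp26b1 was the gene at an unadjusted p under 0.05. It had 222, 228 and 263 counts in CLO libraries and 145, 151 and 212 counts in Ctrl libraries, which came to 11.8 ± 1.38 TMM-scaled CPM in CLO libraries and 6.43 ± 1.49 in Ctrl libraries (SD, n = 3 each). All 3 CLO libraries stood above all 3 Ctrl libraries, and Ctrl 3 was the nearest to them. The log2 fold change was 0.88 ± 0.20 (SE), and edgeR gave it an unadjusted p of 0.00104, or 0.195 adjusted. It passed with an adjusted p of 0.0213 by DESeq2, which called 204 genes in all, and with an adjusted p of 0.0068 by edgeR without the filter on low counts, which called 699. Without both Ctrl 1 and Ctrl 2 the log2 fold change was 0.54.

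The other gene that was higher in all CLO libraries was Cyp4f16, with 3.74, 3.33 and 3.68 TMM-scaled CPM in CLO libraries and 2.85, 3.33 and 2.69 in Ctrl libraries, where CLO 2 and Ctrl 2 nearly met. The 4 genes lower in all CLO libraries were Cyp46a1 (log2 fold change -0.14 ± 0.13), Cyp1b1 (-0.24 ± 0.23), Cyp4f15 (-0.28 ± 0.16) and Cyp4x1 (-0.36 ± 0.19, SE). Their edgeR adjusted p values lay between 0.418 for Cyp4x1 and 0.642 for Cyp1b1. For Cyp7b1 edgeR gave a log2 fold change of 0.38 ± 0.18 (SE, adjusted p 0.389), and Ctrl 3 lay within the CLO libraries. Its log2 fold change was 0.07 without both Ctrl 1 and Ctrl 2. For Cyp27a1 edgeR gave -0.74 ± 0.40 (SE, adjusted p 0.426), and the value was 0.32 without those libraries, so its direction rested on them.

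**Figure D4:**
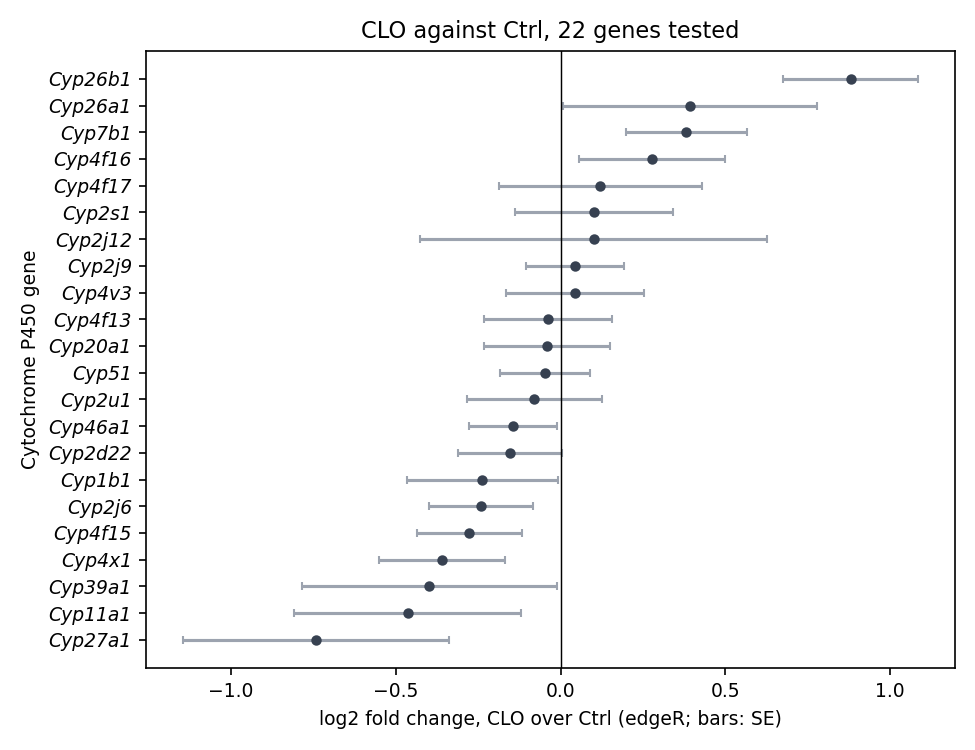
Log2 fold change (CLO over Ctrl, points, with bars of 1 SE) from edgeR for the 22 P450 genes tested, with a line at 0. Cyp26b1 at 0.88 lies farthest to the right and Cyp27a1 at -0.74 farthest to the left.

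By role, the tested fatty acid enzymes of family 4 were split evenly, 3 with positive and 3 with negative log2 fold changes. In families 1 to 3 the split was 3 to 4, and among the sterol and bile acid enzymes it was 1 to 4, with Cyp7b1 as the positive one. Both tested retinoic acid enzymes were positive and Cyp11a1, the tested steroid hormone enzyme, was negative at -0.46 ± 0.34 (SE), or -0.17 without Ctrl 1. Beside it, 6 Leydig and adrenal cell markers summed to 0.144 to 0.329 TPM in CLO libraries and to 1.299, 0.501 and 0.326 TPM in Ctrl libraries. This sum was highest in Ctrl 1, as Cyp11a1 was, but it rested on 83 counts in all, 72 of them of Star. Hsd3b1 and Nr5a1 were at 0 counts, and Insl3 had 5 counts, in Ctrl 1 alone. Among the tested P450 genes, none but Cyp26b1 had an unadjusted p under 0.05 in this edgeR comparison.

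Marker genes of tissue make-up stood high or low in the same libraries as Cyp26b1, Cyp7b1 and Cyp27a1. Of 9 marker genes of hippocampal fields, none was at 0 counts. Their summed TPM was 694, 666 and 628 in CLO libraries and 522, 512 and 654 in Ctrl libraries. It was lowest in Ctrl 1 and Ctrl 2, as were Cyp26b1 and Cyp7b1. Of the 9, 6 had positive and 3 negative log2 fold changes. By edgeR 4 were higher in CLO libraries at an unadjusted p under 0.05, against 6.18% of all genes tested. The 3 negative ones were Prox1, Wfs1 and Zbtb20. Not every marker followed the sum, as Zbtb20 was highest in Ctrl 1 and Ctrl 2, at 6.55 and 5.81 TPM. Of 9 neocortex markers, none at 0 counts, all 9 had negative log2 fold changes and 5 were lower at an unadjusted p under 0.05, against 7.26% of all genes tested, with a summed TPM of 60.5 to 102 in CLO libraries and 89.8 to 149 in Ctrl libraries. The 8 markers of meningeal fibroblasts, none at 0 counts, summed to 29.9 to 42.3 TPM in CLO libraries and 41.2 to 64.2 TPM in Ctrl libraries. Beside Cyp1b1, the 6 pericyte markers, none at 0 counts, all had negative log2 fold changes, with a median of -0.35. By edgeR 2 of them were lower at an unadjusted p under 0.05, against 7.26% of all genes tested. The 6 pericyte markers summed to 133 to 183 TPM in CLO libraries and 151 to 213 TPM in Ctrl libraries. The 6 endothelial markers, none at 0 counts, had 2 positive and 4 negative log2 fold changes (median -0.21) and summed to 149.7 to 219 TPM in CLO libraries and 150.4 to 255 TPM in Ctrl libraries. Spermatid markers had 2, 1 and 3 counts in CLO libraries and 346, 131 and 5 counts in Ctrl libraries, with Ctrl 1 and Ctrl 2 high, as for Cyp27a1. Of the 14 marker lists, the spermatid list alone did not overlap between the groups in summed TPM. The part of these differences in the P450 values was not tested.

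**Figure D5:**
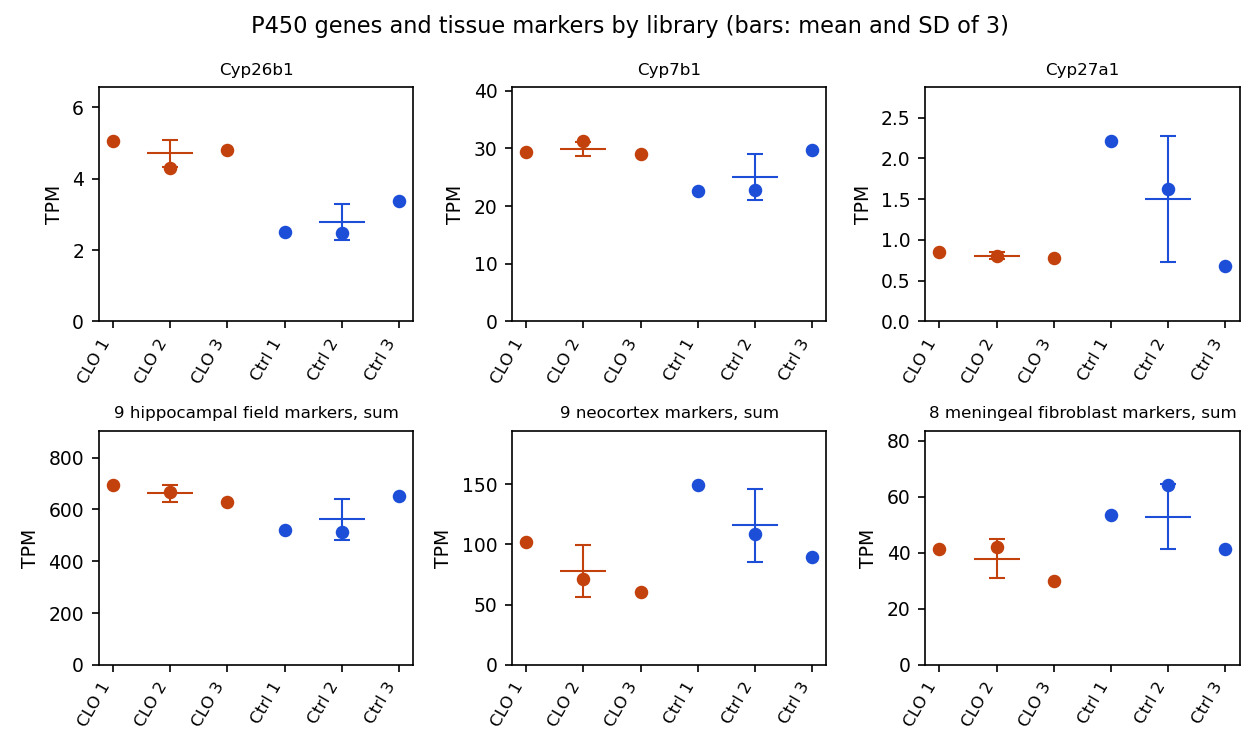
TPM in each library (points, CLO libraries left of Ctrl libraries, bars for the mean and SD of 3) of Cyp26b1, Cyp7b1 and Cyp27a1, and summed TPM of the hippocampal field, neocortex and meningeal fibroblast markers. Ctrl 1 and Ctrl 2 are lowest for Cyp26b1, Cyp7b1 and the hippocampal field sum and highest for Cyp27a1.

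The heme and electron partners of P450s were nearly all read. All 9 heme synthesis genes were read, and 7 of them had positive and 2 negative log2 fold changes, with a median of 0.18. Uros, an enzyme of this pathway, averaged 11.4 ± 0.748 TPM in CLO libraries and 9.81 ± 1.45 TPM in Ctrl libraries (SD, n = 3 each), with overlap. Of 11 electron donors and heme partners, 10 were tested, 7 positive and 3 negative, and none reached an unadjusted p under 0.05. The reductase Por had 68.5, 67.9 and 56.0 TPM in CLO libraries and 64.7, 52.4 and 59.2 TPM in Ctrl libraries (log2 fold change 0.25 ± 0.15, SE, edgeR adjusted p 0.449). The groups overlapped in TPM, while on TMM-scaled CPM all CLO libraries stood above all Ctrl libraries, as for 7.84% of all genes tested.

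Around the retinoic acid enzymes, 12 genes of synthesis and signalling were tested, 7 positive and 5 negative. Aldh1a2, a retinoic acid synthase of the meninges, had 2.83, 2.89 and 1.44 TPM in CLO libraries and 6.73, 6.92 and 1.76 TPM in Ctrl libraries. Only Ctrl 1 and Ctrl 2 were high, as in the meningeal and spermatid sums. Aldh1a2 is itself on the meningeal fibroblast list, so that sum contains its TPM. For Aldh1a2 edgeR gave a log2 fold change of -0.98 ± 0.42 (SE) whose adjusted p was 0.355, or 0.018 without the filter on low counts. Aldh1a1, another retinoic acid synthase, had 27.6, 24.6 and 30.5 TPM in CLO libraries and 19.3, 22.1 and 26.9 TPM in Ctrl libraries, with overlap (log2 fold change 0.41 ± 0.19, SE).

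Of 10 oxysterol and bile acid partners, 7 were tested, 3 positive and 4 negative. The oxysterol receptor gene Nr1h3 had 3.72, 3.91 and 3.93 TPM in CLO libraries and 2.84, 2.08 and 2.75 TPM in Ctrl libraries. The groups did not overlap, and edgeR put the log2 fold change at 0.73 ± 0.24 (SE, adjusted p 0.287). Its target Abca1, the cholesterol exporter, had 4.48, 2.11 and 1.97 TPM in CLO libraries and 3.19, 5.56 and 3.96 TPM in Ctrl libraries. Here the groups overlapped and edgeR gave -0.50 ± 0.26 (SE, adjusted p 0.417). Of 10 genes of steroid synthesis other than P450s, Hsd3b1, Hsd3b2 and Hsd17b3 had 0 counts and 5 were tested, 3 positive and 2 negative. Hsd11b1, which regenerates corticosterone, had 22.8, 22.3 and 22.7 TPM in CLO libraries and 19.2, 17.7 and 16.6 TPM in Ctrl libraries, with no overlap (log2 fold change 0.48 ± 0.15, SE, edgeR adjusted p 0.271). Tspo, a mitochondrial outer membrane protein linked to steroid synthesis, had 12.1, 14.7 and 12.03 TPM in CLO libraries and 12.6, 8.00 and 7.81 TPM in Ctrl libraries, with overlap. Both were among the genes higher in CLO libraries at an unadjusted p under 0.05 by edgeR, but neither passed the adjusted test. Over all 16129 genes tested the log2 fold change ran against gene length (r = -0.50 across genes, which are not independent replicates), and with that trend removed Tspo had 0.32, against 0.60 with it kept, and its edgeR unadjusted p was 0.121, against 0.0274.

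Of 10 xenobiotic receptor genes, 6 were tested, 1 positive and 5 negative, and Arnt2, a dimer partner in this receptor family, had a log2 fold change of -0.48 ± 0.21 (SE, edgeR adjusted p 0.358), or -0.27 without Ctrl 2. Of 9 eicosanoid and epoxide genes, 7 were tested, 6 positive and 1 negative. Ephx1, the microsomal epoxide hydrolase, averaged 30.5 ± 0.626 TPM in CLO libraries and 26.8 ± 2.93 TPM in Ctrl libraries, and the cyclooxygenase Ptgs2 averaged 10.3 ± 0.626 TPM in CLO libraries and 9.11 ± 2.46 TPM in Ctrl libraries (SD, n = 3 each). Both overlapped between the groups on the scaled values. Of 5 vitamin D signalling genes Rxra alone was tested, at -0.37 ± 0.18 (SE), or -0.18 without Ctrl 2. Of 9 other drug oxidases, 6 were tested, 2 positive and 4 negative, with Aox4 at -0.78 ± 0.50 (SE) on 59 counts and Fmo2 at 0.42 ± 0.51 (SE) on 91 counts. Across the 9 lists no gene had an adjusted p under 0.05 by edgeR with all 6 libraries and the filter on low counts. The shares of all genes tested given above apply to their unadjusted counts as well.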

How the data were processed

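The deposited raw counts per gene and the deposited TPM table held 6 libraries. Per the submitters' processing notes, cutadapt 2.9, HISAT2 2.2.0, featureCounts 2.6.0 and GRCm39 were used, with no role stated. The annotation release and the treatment of multi-gene reads: not given in the sources used here. TPM recomputed from the deposited counts and gene lengths matched the deposited TPM within 5e-04. Levels are the authors' TPM, as deposited. The 1103 rows with no gene annotation, 0.640 to 0.780% of counts, stayed out of library sizes and tests. CLO and Ctrl libraries were compared with edgeR 4.0.16 (R 4.3.3: filterByExpr, TMM, glmQLFit and glmQLFTest, Benjamini-Hochberg adjustment over 16129 genes, threshold 0.05), tested on simulated data. DESeq2 1.42.0 and limma 3.58.1 were alternatives, beside no filter on low counts, a length trend, a replicate block and each library left out. Genes at a mean of at least 1 TPM or passing the filter are named, and from each pathway list at most 2 genes, those with the smallest p. 1 gene this rule names is not reported here. The members and lists were chosen with earlier results of these data known. Cyp genes outside this rule are named by role, after their values were seen. Replicates of a group differed beyond sampling noise. Motifs were searched in RefSeq windows of 250 bases, and shared sequence as 50-base stretches of GENCODE M21 transcripts. No sequence of the GRCm39 build was used.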

Additional observations from a re-analysis of the deposited data

How the results depend on the processing

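With 3 libraries a group and markers of tissue make-up that differ between libraries, small differences in P450 genes could not be read. Of 38 named genes, 37 had a value in all 14 settings and 23 of these kept 1 direction throughout. Of the 38, none passed the adjusted test by edgeR with the filter on low counts, and 2 passed in some setting, Cyp26b1 and Aldh1a2. With 1 library left out, 24 of the 38 moved by over 1.5 times in log2 fold change. The count of genes past an adjusted p of 0.05 was 0 by edgeR (2167 at an unadjusted p under 0.05) and 0 by limma-voom, 204 by DESeq2 (140 higher, 64 lower), 699 without the filter on low counts (235 higher, 464 lower), and 0 to 20 with a library left out, 20 without Ctrl 3 and 2 without Ctrl 1. Of these, P450 genes numbered 1 by DESeq2, 1 without the filter and 0 with any library left out. The cause of these unlike counts was not tested. At an unadjusted p under 0.05 by edgeR, Cyp7b1 was also higher without the filter, without CLO 1, without Ctrl 3 and with the replicate block. Cyp27a1 was lower at that level without Ctrl 3, and both Cyp27a1 and Cyp4f15 were lower with the length trend removed. Cyp26b1 was higher in CLO libraries in all 14 settings, with log2 fold changes of 0.54 to 1.09 and adjusted p of 0.0068 to 0.815, and 0.78 to 1.09 with 1 library left out. The median of the P450 genes was -0.142 (without CLO 1) to -0.037 with 1 library left out and 0.053 without both Ctrl 1 and Ctrl 2, where no test was made. The genes at 1 TPM or more numbered 18 to 20 with a library left out and, as alternatives chosen after seeing the data, 18 without both Ctrl 1 and Ctrl 2, where 26 genes were read. They numbered 14 where every library had to reach the level, 22 at 0.5 TPM and 13 at 2 TPM.

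Directions turned without both Ctrl 1 and Ctrl 2 in Cyp51 (0.0199), Cyp2d22 (0.0451), Cyp4v3 (-0.15), Cyp2u1 (0.18), Cyp27a1 (0.32), Cyp39a1 (0.37), Ptgs2 (-0.15) and Aldh1a2 (0.48). They turned for Cyp2j12 by limma-voom (-0.17), with the replicate block (-0.0082) and with the length trend removed (-0.0202), and for Cyp4f13 with the length trend removed (0.0763). With 1 library left out the log2 fold change spanned 0 for Cyp2j9 (-0.0469 to 0.101), Cyp20a1 (-0.165 to 0.0571), Cyp4v3 (-0.12 to 0.15), Cyp2u1 (-0.190 to 0.0931), Cyp4f13 (-0.114 to 0.0572), Cyp2j12 (-0.65 to 0.54), Cyp4f17 (-0.19 to 0.27) and Fmo2 (-0.25 to 0.75). Same-numbered CLO and Ctrl libraries correlated at -0.157, -0.0948 and 0.277 in their deviations from group means. Not every library correlated best with its own number. The labels do not say whether the numbers pair libraries, and with 3 libraries a group these correlations cannot decide it. The replicate block gave 0 genes past the threshold, 1874 at an unadjusted p under 0.05, and a log2 fold change of 0.90 for Cyp26b1 with an adjusted p of 0.288.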
